A study of Mus musculus with 8 samples.

Results

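The genes Ehf, Elf3, Elf5, Spdef, Ets1, Ets2 and Elf1 encode 7 transcription factors of the ETS family. They were examined in a set of accessible chromatin regions from mouse medullary thymic epithelial cells (mTECs), which display tissue-restricted self-antigens to developing T cells. A region was taken as belonging to a gene when it overlapped the gene body or the 50 kb on either side, and a region near a pair of the genes was given to the nearer transcription start. By this rule 62 of the 57124 regions of the set, 0.109%, belonged to the 7 genes. The genes were chosen by name, with earlier results of these data known. Their windows were set by position, and no measured value entered that rule.

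The assay was ATAC-seq: a Tn5 transposase cuts DNA where chromatin is open and leaves sequencing adapters at the cuts. The mTECs came from the thymus of wild-type (wt) BL6N6 mice a few weeks old and had been sorted as CD45-negative, Epcam-positive and CDR1-negative cells. By surface Tspan8, a self-antigen, and MHC class II, a sign of maturation, the 8 samples fall into Tspan8neg MHCIIlow, Tspan8pos MHCIIlow, Tspan8neg MHCIIhigh and Tspan8pos MHCIIhigh, with 2 biological replicates in each of the 4 groups. Per the paper, MHCIIlow cells are a mixture of immature mTECs and late stages that have lowered MHC class II again. The regions are 1 merged set for all samples, so a region may come from any group, and the read counts could not be tied to samples, which leaves the groups not compared here. All values below are therefore properties of regions, with no replicates and no test, and they are set beside the same property over all regions or over all 21938 protein-coding genes.

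ETS proteins share a winged helix-turn-helix DNA-binding domain that recognises a GGAA core. Ehf, Elf3 and Elf5 form the epithelium-specific (ESE) branch of the family: Ehf acts in stratified and glandular epithelia, Elf3 in intestine and airway, and Elf5 in the mammary gland and the trophoblast. Spdef drives secretory fates such as the goblet cell. Ets1 is best known from lymphocytes and endothelium, Ets2 is a target of Ras signalling, and Elf1 is broadly expressed with known roles in blood cells.

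The sequences just upstream of the annotated starts show how the genes differ at the site where transcription begins. Each is printed 5′ to 3′ on the strand of its gene, from GRCm38 (mm10), without exon bases. The first 3 are the parts of accessible regions that lie upstream of a start, for Elf3 at chr1:135258569-135258766 (minus strand), Elf1 at chr14:79515374-79515673 (plus) and Ets2 at chr16:95701862-95702074 (plus). The next pair are the bases before the starts of Elf5 at chr2:103423818-103424061 (plus) and Spdef at chr17:27728956-27729201 (minus), where no region was found. The last is a whole region in an intron of Ehf at chr2:103271616-103271804 (minus). Capitals mark the octamer ATGCAAAT, read as ATTTGCAT on the other strand, and the AP-1 word TGANTCA.
Elf3 start: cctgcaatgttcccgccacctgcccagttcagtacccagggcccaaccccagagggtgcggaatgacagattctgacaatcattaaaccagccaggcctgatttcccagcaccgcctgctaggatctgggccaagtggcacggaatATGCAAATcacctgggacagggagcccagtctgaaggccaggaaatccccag
Elf1 second start: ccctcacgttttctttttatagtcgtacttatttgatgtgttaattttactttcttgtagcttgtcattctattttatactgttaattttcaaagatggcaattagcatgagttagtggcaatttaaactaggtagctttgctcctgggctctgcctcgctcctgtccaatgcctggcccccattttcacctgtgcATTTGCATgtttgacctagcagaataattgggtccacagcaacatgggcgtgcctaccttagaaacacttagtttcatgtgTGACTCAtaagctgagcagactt
Ets2 start: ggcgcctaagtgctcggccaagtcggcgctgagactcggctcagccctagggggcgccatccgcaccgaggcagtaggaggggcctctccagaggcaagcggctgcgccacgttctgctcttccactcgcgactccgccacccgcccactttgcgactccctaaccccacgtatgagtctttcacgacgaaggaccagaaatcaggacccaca
Elf5 start, no region: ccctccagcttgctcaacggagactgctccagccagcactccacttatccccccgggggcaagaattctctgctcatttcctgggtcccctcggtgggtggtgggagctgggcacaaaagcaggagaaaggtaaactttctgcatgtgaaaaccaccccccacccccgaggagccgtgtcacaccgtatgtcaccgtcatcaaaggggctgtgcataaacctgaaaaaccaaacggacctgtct
Spdef start, no region: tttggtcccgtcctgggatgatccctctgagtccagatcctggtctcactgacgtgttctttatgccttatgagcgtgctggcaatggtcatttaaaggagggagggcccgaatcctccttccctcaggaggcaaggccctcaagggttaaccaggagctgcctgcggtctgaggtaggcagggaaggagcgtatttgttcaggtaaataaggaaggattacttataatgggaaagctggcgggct
Ehf intron region: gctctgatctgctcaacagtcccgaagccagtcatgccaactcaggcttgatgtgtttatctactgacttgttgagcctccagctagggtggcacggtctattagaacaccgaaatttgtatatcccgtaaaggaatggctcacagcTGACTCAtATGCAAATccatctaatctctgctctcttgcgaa

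To address which of the genes had an open promoter in the merged set, regions were assigned by their centre to a promoter, the stretch reaching 1000 bases before and 100 bases past a start. Ehf, Elf3, Ets1 and Elf1 had such a region, 4 of the 7 genes, whereas 48.6% of protein-coding genes had one. Elf5, Spdef and Ets2 had none by this measure. When a region only had to lie over a start, Ets2 joined them, which made 5 of 7 genes against 56.4% of protein-coding genes. Both shares are close to what all genes show, so the 7 genes did not stand out as a group by their promoters. They differed among themselves in which starts were covered and in the kind of sequence found there.

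Ehf (ENSMUSG00000012350.15, chr2:103263433-103303278, minus strand) had 2 promoter regions, which 3.98% of protein-coding genes reach. The wider one spanned 703 bases over the starts at 103303278 and 103303166, and 25.1% of all promoter regions were at least as wide. The second, at chr2:103304027-103304100, measured only 74 bases, and 99.2% of promoter regions were at least as wide. Another annotated start of Ehf, at 103283760 inside the gene, lay under no region, and the nearest region centre was 2005 bases away. The accessible starts of Ehf were thus those at its annotated 5′ end.

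Elf3 (chr1:135253575-135258568, minus strand) had a single promoter region of 439 bases that covered both of its starts, 135258568 and 135258438. Ets1 (chr9:32636221-32757820, plus strand) had a region of 659 bases at chr9:32695539-32696197 over the starts at 32696022, 32696049 and 32696121, while its start at 32696384 lay outside it. The annotated 5′ end of Ets1 is far upstream of these starts, and no region of the set lay there. Ets2 (chr16:95702075-95721051, plus strand) had its widest region, 899 bases at chr16:95701862-95702760, over its only start at 95702075. The centre of that region was 236 bases downstream of the start, in an exon, which is why the centre rule left it out.

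Elf1 (chr14:79481194-79582494, plus strand) had an accessible region at each of its starts. The first start, 79481194, lay under the widest of the 62 regions, 1428 bases at chr14:79480711-79482138, whose centre fell in the promoter of the neighbouring gene Wbp4. The starts at 79515674 and 79515686, inside the gene body, had a region of their own of 445 bases at chr14:79515317-79515761. The 1428-base region had a GC content of 72.4% and the 445-base region 43.8%, so the pair of promoters of this gene differed strongly in base composition.

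Elf5 and Spdef had no promoter region under any of 6 definitions of a promoter. The region centre nearest to a start of Elf5 (chr2:103411688-103450989, plus strand) was 32694 bases away. For Spdef (chr17:27714352-27728955, minus strand) the nearest was 11938 bases away, a 173-base region in an intron of the gene at chr17:27716865-27717037. A missing region says only that the merged set holds no peak there.

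The promoters of the genes also differed in their CpG content, given as the observed over the expected number of CpG dinucleotides. The median over all 12501 promoter regions was 0.768. The region at the start of Ehf had a ratio of 0.298, that of Elf3 0.451 and that at the second start of Elf1 0.473. In contrast, the ratio was 0.862 at Ets1, 0.846 at Ets2 and 0.937 at the first start of Elf1. The starts of the ESE genes Ehf and Elf3 were therefore on the CpG-poor side of the median and those of Ets1 and Ets2 on the CpG-rich side.

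Across the whole windows the genes spanned 1040.62 kb and held 5.96 regions per 100 kb. Over protein-coding genes the median was 3.76 regions per 100 kb, with quartiles of 1.64 and 6.36, and the median over the 7 genes was 5.24. Ets2 with 12 regions (10.1 per 100 kb) and Ehf with 14 (10.0) had the most regions per 100 kb, and 6.04% and 6.17% of protein-coding genes reached their values. Elf3 followed with 9 regions (8.57 per 100 kb, reached by 11.5% of genes). Spdef had 6 regions (5.24, reached by 34.7%), Elf1 10 (4.97, 36.9%) and Ets1 9 (4.06, 46.0%), all in the middle of the range. Without the regions at promoters of other genes the density at Elf1 was 2.98. Elf5 had 2 regions (1.44 per 100 kb, or 0.718 without the promoter region of another gene), and 26.5% of protein-coding genes had 2 or fewer.

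**Figure D1:**
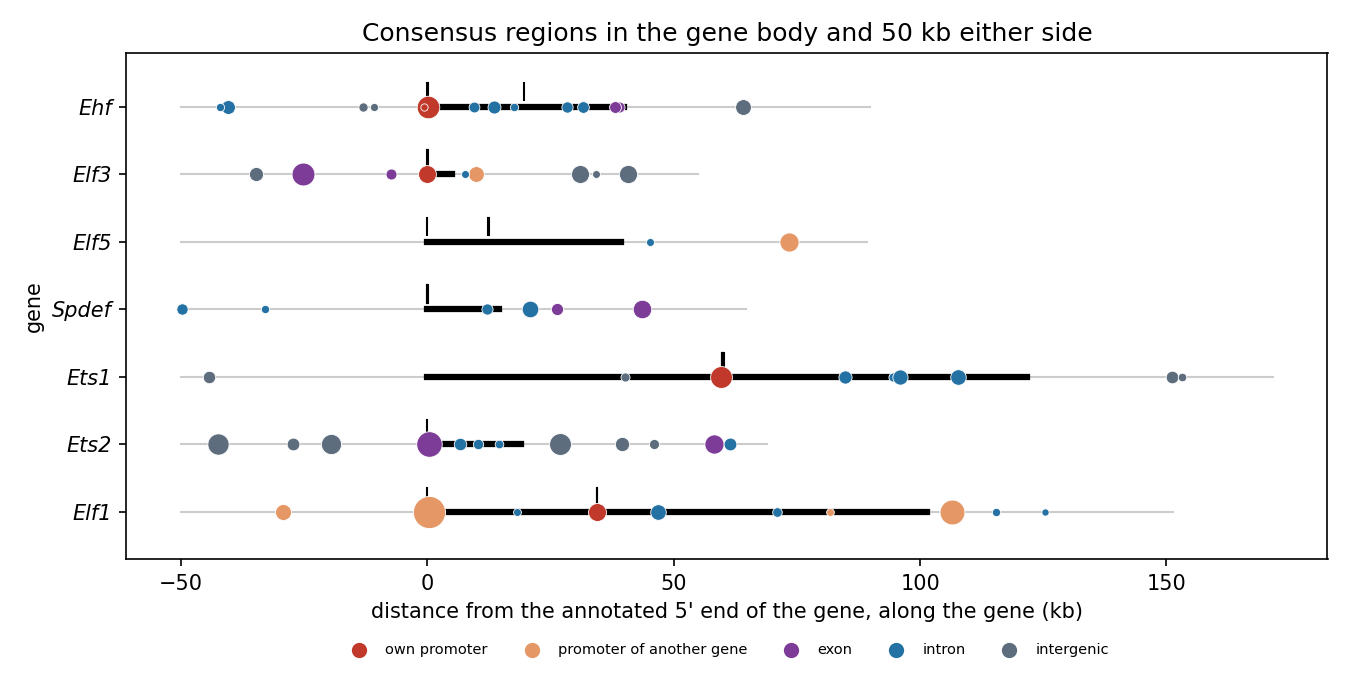
Positions of the 62 regions around the 7 genes, with the distance from the annotated 5′ end of each gene in kb on the horizontal axis and 1 gene per line. The thick bar is the gene body, the thin line its 50 kb flanks, the upright ticks the annotated starts, and each dot the centre of a region, with an area that scales with its width and a colour for its place; Elf5 has no dot on its body or its upstream flank, and Ehf has 8 regions in its gene.

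Regions outside promoters, where enhancers would be sought, gave a similar order. Ets2 had 12 such regions, 10.1 per 100 kb, a density reached by 0.957% of protein-coding genes, or by 1.16% when regions over a start were left out as well. Ehf also had 12 (8.58 per 100 kb, reached by 2.28%) and Elf3 had 7 (6.67, reached by 7.19%). Spdef had 6 (5.24, reached by 15.3%), so that none of its regions had its centre at a promoter. With regions over a start left out as well, Ehf kept 12 (reached by 1.75%). By that count Elf3 had 6 (5.71 per 100 kb, reached by 9.71%) and Spdef 5 (4.36, reached by 19.6%). The values of Ets1 (3.61), Elf1 (2.48) and Elf5 (0.718) were reached by 32.3%, 48.2% and 78.3% of genes. The median over the 7 genes was 5.24 and over all protein-coding genes 2.34.

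**Figure D2:**
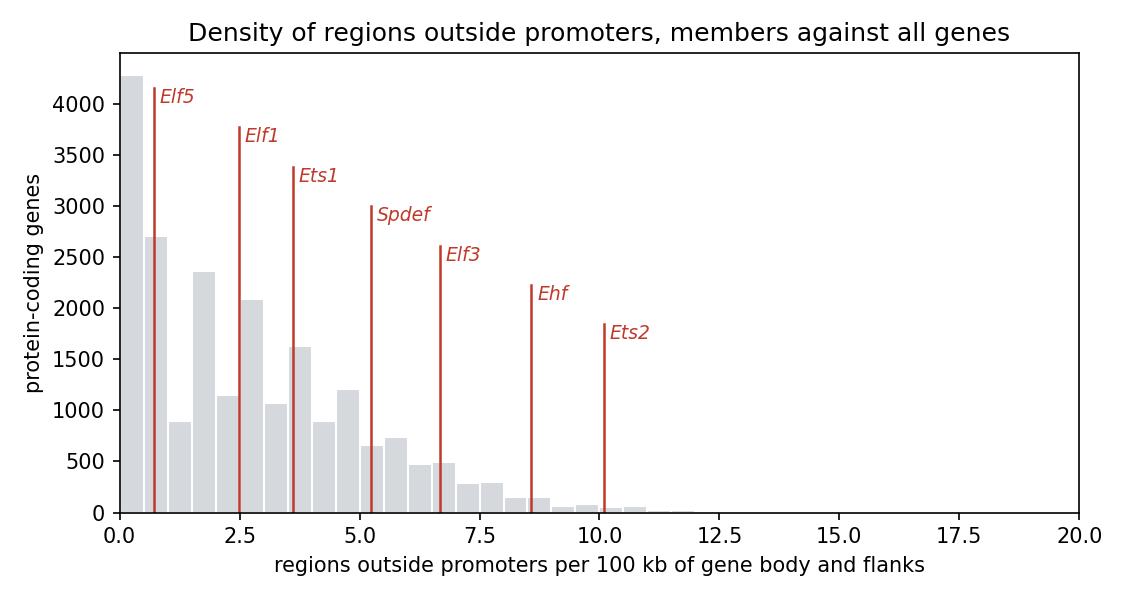
Number of regions outside promoters per 100 kb of gene body and flanks on the horizontal axis, with the number of protein-coding genes in each bin as grey bars. Red lines mark the 7 ETS genes, from Elf5 at 0.718 to Ets2 at 10.1; the 3 protein-coding genes at 20 or more are not drawn.

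The density at Ehf rested on narrow regions. Of its 14 regions 10 were under 200 bases, compared with 3 of 12 at Ets2 and 3 of 9 at Elf3. With regions of at least 200 bases only, Ehf kept 4 regions (2.86 per 100 kb), a density that 38.0% of protein-coding genes reached. Under the same limit Ets2 kept 9 (7.56 per 100 kb, reached by 3.34% of genes) and Elf3 kept 6 (5.71, reached by 10.4%). Ets2 and Elf3 thus stayed near the top of the range, and Ehf moved to near the median of 2.08. These counts keep regions at promoters and starts. At Elf3 they include its own promoter region and the regions at starts of Gm26642 and Rnpep.

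The median width was 173 bases at Ehf (range 74 to 703), 190.5 at Spdef (94 to 474), 219 at Ets1 (101 to 659), 232 at Elf1 (73 to 1428), 253.5 at Ets2 (103 to 899) and 342 at Elf3 (86 to 726). The 2 regions of Elf5 measured 88 and 507 bases. Over the 62 regions the median was 217.5 bases, near the 212 of the whole set, and 28 of them (45.2%) were under 200 bases against 47.4% of all regions. The widths of the 7 genes overlapped broadly, with both narrow and wide regions at every gene.

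**Figure D3:**
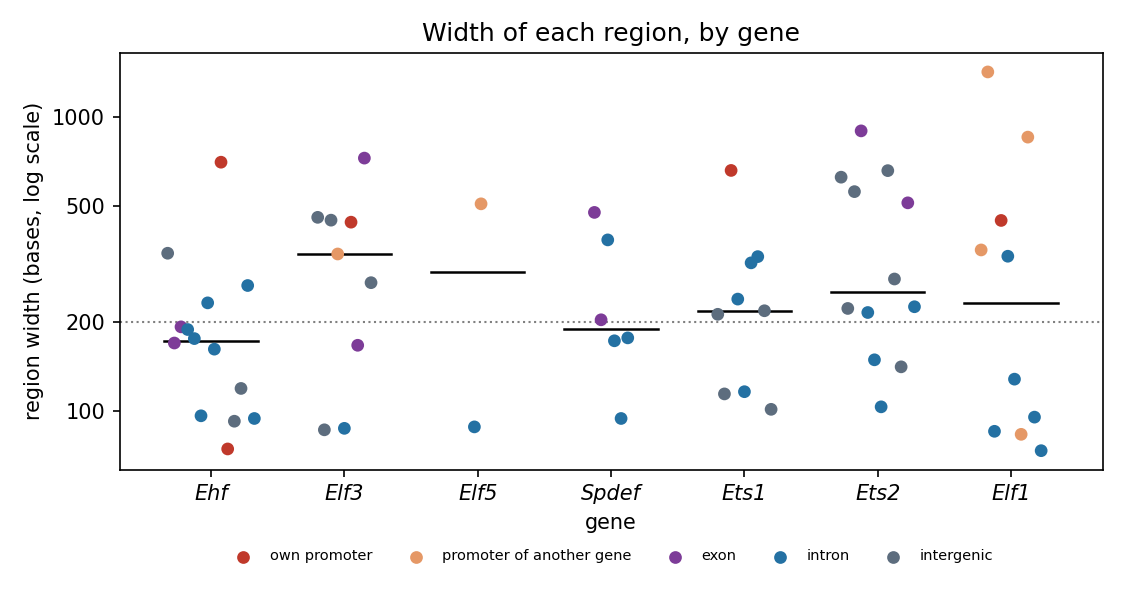
Width in bases (log scale) of each of the 62 regions by gene, coloured by place, with a black line at the median of each gene and a dotted line at 200 bases. Of the 14 dots of Ehf 10 lie under the dotted line, compared with 3 of 12 at Ets2.

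By place, 5 of the 62 regions lay at a promoter of the 7 genes, 6 at a promoter of another gene, 8 in exons, 26 in introns and 17 were intergenic, outside every transcript of the basic set. Of these 17, 1 lay within the annotated body of Ets1, upstream of the transcripts of that set, and it also counts as inside the gene below. Introns held 41.9% against 38.8% of all regions, exons 12.9% against 8.36%, promoters 17.7% against 21.9% and intergenic sequence 27.4% against 31.0%. Regarding the gene bodies, 26 regions lay inside the gene, 15 upstream and 21 downstream. Of the 51 regions outside promoters, 22 had a start of their own ETS gene as the nearest annotated start. The other regions lay closer to a start of another gene, and position alone does not assign them to the ETS gene. Soft-masked repeat bases were absent from 41 regions (66.1%), compared with 51.3% of all regions.

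The widest region outside promoters differed in kind from gene to gene. At Ehf it was an intergenic region of 344 bases at chr2:103239051-103239394, 44538 bases downstream of the inner start at 103283760. At Ets1 it was an intronic region of 335 bases at chr9:32743722-32744056, and at Elf1 an intronic region of 336 bases at chr14:79527748-79528083. At Elf3 (726 bases, chr1:135283481-135284206) it lay in an exon of the upstream gene Rnpep, 241 bases from a start of that gene. At Spdef (474 bases, chr17:27685084-27685557) it lay in an exon of Pacsin1, 123 bases from a start. The wide regions near Elf3 and Spdef were therefore close to starts of other genes. That of Ehf lay 6258 bases from a start of Gm13873 and that of Ets1 32718 bases from a start of Gm27240. Both were nearer to those starts than to a start of the ETS gene. The region of Elf1 had a start of Elf1, 12229 bases away, as the nearest.

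Ehf and Elf5, related ESE genes, are neighbours on chromosome 2, point away from each other and are separated by 108.409 kb. The stretch between them was touched by 6 regions, all on the side of Ehf, of which 1 is the region over the start of Ehf. The gene body of Ehf held 8 regions and that of Elf5 held 0, although the bodies are of like length at 39846 and 39302 bases. Elf5 was the only one of the 7 genes with no region in its body, so 6 of 7 had one, against 69.2% of protein-coding genes. Among the 1027 protein-coding genes with a body within 10% of the length of Elf5, 15.0% had 0 regions and 0.779% had 8 or more, with a median of 1. Of the 8 regions in Ehf, only those of 233 and 703 bases were at least 200 bases wide. The body counts were not repeated under that limit. The longest stretch with no region ran for 111379 bases, chr2:103345398-103456776, and took in the whole of Elf5. Of all gaps in the set, 8.02% were at least as long, and the median gap was 14737 bases. The gap was picked as the longest that touches the window, which favours long gaps. Picked in the same way, the longest gaps at the genes other than Ehf and Elf5 were reached by 11.1% (Ets1) to 40.8% (Elf3) of gaps. The 2 regions given to Elf5 both lay in Cat, the gene of catalase: the 88-base region at chr2:103456777-103456864 in an intron and the 507-base region at chr2:103484843-103485349 at its promoter. Neither is nearer to a start of Elf5 than to that of Cat.

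Similar pairs of neighbouring ETS genes exist for Ets1 and Ets2, whose partners Fli1 and Erg are known from blood and endothelial cells. Ets1 and Fli1 are 93.359 kb apart with 1 region between them. The body of Ets1 held 6 regions and that of Fli1, of 120.658 kb, held 1. Among the 494 genes of like length, 23.5% had 6 or more regions and 22.9% had 1 or fewer, so neither gene was far from the median of 3. Ets2 and Erg are 115.481 kb apart with 7 regions between them, and 4 regions lay in the 18977 bases of Ets2 against 6 in the 227.425 kb of Erg. Neither Fli1 nor Erg had a region at a promoter, and Ets2 had none by the same rule, whereas 48.6% of protein-coding genes had one. A region did lie over the start of Ets2 but over no start of Fli1 or Erg, against 56.4% of protein-coding genes with such a region.

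A list of 20 further ETS genes was read in the same way, and all but Etv3l, that is 19, were found in the annotation. Of these 11 had a promoter region (57.9%, against 48.6% of protein-coding genes) and 13 had a region over a start (68.4% against 56.4%). The genes without a promoter region were Fli1, Erg, Fev, Gabpa, Etv2, Etv4, Spi1 and Spic. The number of regions in the window ran from 2 at Fli1 to 31 at Etv6, and the median density was 6.75 per 100 kb against 3.76 over protein-coding genes. The range of the 7 genes, from 2 to 14 regions, lay within that of their relatives.

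The region set was checked against markers of the sorted cells. Of 10 genes of thymic epithelium, 9 had a promoter region, against 48.6% of protein-coding genes, among them Epcam, Foxn1, Krt5, Krt14 and Aire, and only the cortical gene Psmb11 had none. Of 14 genes of other thymic cells 1 had one, the endothelial gene Kdr. None of the 5 T cell genes, the 3 fibroblast genes or the 3 myeloid and B cell genes had a promoter region. These markers concern the merged set and not a single sample.

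The 62 regions were searched on both strands for short words of ETS, KLF, grainyhead, AP-1, POU and FOX factors, and each share was set beside that of all regions of like width. The ETS core GGAA was present in 57 regions, 91.9% against 86.0%. Its longer forms CCGGAAG and AGGAAG, both of which contain GGAA, were present in 3 (4.84% against 6.89%) and 23 regions (37.1% against 31.0%). Outside promoters the share of CCGGAAG turned to 3.92% against 3.38%. Counted per base, GGAA occurred 1.10 times per 100 bases in the 62 regions and 1.11 times in all regions. Regions around ETS genes were thus not richer in the ETS core per base than the rest of the set.

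The promoters themselves spread widely in GGAA content. The region of Elf3 held 8 words, 1.82 per 100 bases, which 8.75% of the 10405 promoter regions of at least 200 bases reached. The 703-base region of Ehf held 10 words (1.42 per 100 bases, reached by 22.5%) and that of Ets1 held 8 (1.21, reached by 34.4%). The 445-base region of Elf1 held 1 (0.225, reached by 96.0%), and the median promoter region had 0.997. Outside promoters, the densest regions of at least 200 bases were at Ehf (1.87 per 100 bases, chr2:103343646-103343912), Ets2 (1.85, chr16:95708679-95708894) and Ets1 (1.79, chr9:32743722-32744056).

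The AP-1 word TGANTCA, bound by Fos and Jun proteins, was present in 19 regions, 30.6% against 21.6% in regions of like width. Outside promoters it was present in 16 of 51 (31.4% against 25.2%). It was found in 6 regions of Ets2, 5 of Ehf, 3 each of Elf3 and Elf1 and 2 of Ets1, but in none of the 6 regions of Spdef and neither of the 2 regions of Elf5. The 95% Wilson interval of the share, which covers counting error over regions only, ran from 20.6% to 43.0% and included the share in regions of like width.

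For the KLF words, GGGTGTGG was present in 5 regions (8.06% against 4.38%) and CACCC, which overlaps it on the other strand, in 36 (58.1% against 53.1%). In the central 200 bases the share with GGGTGTGG was 3.23% against 2.55%, and among regions of at least 200 bases that with CACCC turned to 64.7% against 71.0%. The FOX word TGTTTAC was present in 3 (4.84% against 3.73%), and in 0 of 39, which allows a share of up to 7.69%, against 3.62% with 20 kb on either side. The grainyhead word AACCGGTT was in 0 of 62 regions, which allows a share of up to 4.84%. It was in 0.227% of regions of like width, so its absence could not be told from that of any 62 regions. Both upper shares take a count of 0 to allow up to 3. The 95% Wilson interval reached 5.83% for 0 of 62 and 8.97% for 0 of 39.

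**Figure D4:**
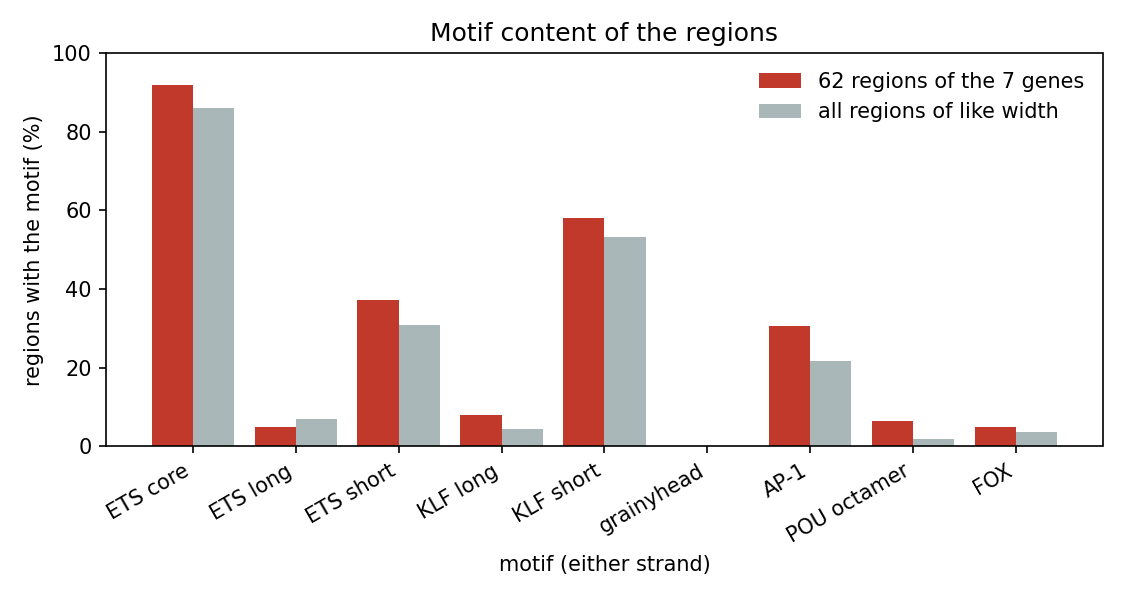
Share of regions in percent that hold each word on either strand, for the 62 regions of the 7 ETS genes (red) and all regions of like width (grey), with ETS core GGAA, ETS long CCGGAAG, ETS short AGGAAG, KLF long GGGTGTGG and KLF short CACCC. The red and grey bars lie near each other for most words, with AP-1 at 30.6% against 21.6% and the POU octamer at 6.45% against 1.98%.

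The octamer ATGCAAAT, the word bound by POU domain factors of the Oct type, was present in 4 of the 62 regions (6.45% against 1.98% in regions of like width). Of these 4 regions, 3 were promoter regions of Ehf, Elf3 and Elf1, out of 5 promoter regions of the 7 genes, whereas 249 of all 12501 promoter regions (1.99%) held the word. In the sequences printed above, its first base lay 52 bases upstream of the start of Elf3, and 104 and 116 upstream of the pair of inner starts of Elf1, where it read ATTTGCAT. Within 150 bases upstream of a start, the octamer was found at 3 of the 7 genes and at 1.49% of protein-coding genes. The starts of Ets1, Ets2, Elf5 and Spdef had none in that stretch. The fourth region was the intronic region of Ehf printed last, in which TGACTCA and ATGCAAAT are separated by 1 base. Outside promoters the share was 1 of 51 (1.96% against 1.99%), so the higher share came from the promoters. This word was singled out after its values were seen, and a match gives the letters only. The shares were not matched for GC content. That was 45.8% in the promoter region of Ehf with the word, 59.2% in that of Elf3 and 43.8% in that of Elf1. The median over all promoter regions was 64.6%.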

How the data were processed

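ATAC-seq of 8 mTEC samples in 4 groups was deposited as 1 table. Per the study's methods, the authors aligned reads to mm10 with Bowtie2, filtered and deduplicated them, called broad peaks with MACS2 and merged them with bedtools; whether peaks were called per sample is not stated. Per the file headers, featureCounts 2.0.3 counted reads per region. Of the deposited values, the start, end and width of each region in bases were used. The names of 8 count columns match no sample label, so these columns were not used, depth is not analysed here, and the planned tests between groups were not run.

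Regions were annotated with the basic set of GENCODE M21 and sequence was read from GRCm38 (mm10). Of the 7 genes, 5 matched the RefSeq promoter table for GRCm38, in which 1.60% of 32851 promoters (the 250 bases before a start) hold ATGCAAAT, 6.75% TGANTCA and 93.4% GGAA. Regions of like width were within 10% of the width of a region. Each gene's promoter regions, its widest region outside promoters and its region richest in GGAA, among regions of at least 200 bases, were named. For Spdef the last was chr17:27707958-27708339 (0.524 GGAA per 100 bases). For Elf1 it was chr14:79587195-79588050 (1.29), at the promoter of Sugt1. The genes, lists and motifs were chosen with earlier results of these data known. Functions were tested on simulated data. Start sequences are given for 5 of the 7 genes, and others are not reported here. Alternatives changed the window, promoter definition, annotation, width, repeat content and sequence searched. Tools were samtools 1.23.1, pysam 0.24.0 and Python 3.11.15 with pandas 2.3.3, matplotlib 3.10.9, scipy 1.17.1 and numpy 2.4.6.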

Additional observations from a re-analysis of the deposited data

How the results depend on the processing

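Of 84 values recomputed under an alternative, 68 moved by less than their limit and 16 by more. The limit was 1.5-fold for densities and gene counts. Some of the 68 could not move, so their number does not measure stability. No region of the 7 genes was at least 50% repeat, and AACCGGTT was in 0 regions under every setting. Ehf, Spdef, Ets1 and Ets2 had no region at a promoter of another gene. Against regions of like width, 4 of the 9 words turned direction in a setting. CACCC was present in 64.7% against 71.0% among regions of at least 200 bases, CCGGAAG in 3.92% against 3.38% and ATGCAAAT in 1.96% against 1.99% outside promoters, and TGTTTAC in 0 of 39 regions against 3.62% with 20 kb on either side. GGGTGTGG fell to 3.23% against 2.55% in the central 200 bases. The cause was not tested. With regions of at least 200 bases only, the density over the 7 windows fell from 5.96 to 3.27 per 100 kb, and GGAA was present in 34 of 34 regions (100%) in place of 91.9%, as the 5 regions without it were all narrower. Under the same limit the density was 2.86 at Ehf, 2.62 at Spdef, 2.48 at Elf1 and 0.718 at Elf5. With 100 kb on either side, the density at Ehf was 5.84 and at Elf5 0.836 per 100 kb. At that width the windows of Ehf and Elf5 overlap, and regions in the shared stretch were given to the nearer start. The value of Elf5 therefore leaves out regions of its window that were given to Ehf. Without regions at promoters of other genes, the density was 2.98 at Elf1 and 0.718 at Elf5. The count of genes with a promoter region was 4 or 5 under all 6 definitions, which 44.4% to 63.3% of protein-coding genes met. The octamer limit of 150 bases and its alternatives were chosen after seeing the data: 2 genes had the word within 100 bases, and Ehf, Elf3 and Elf1 had it within 250 and within 500 bases, where 2.21% and 3.95% of protein-coding genes did.

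No paired analysis was possible because the read counts could not be tied to samples. For the same reason the planned tests of counts between groups, with their other normalization, filter, replicate block and left-out replicates, were not run. Merged peaks give no measure of how open a region is.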
